A study of Drosophila melanogaster with 2 samples.

Results

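The regions described here are weak entries of a ChIP-seq peak list whose summits lie in the protein-coding part of genes. They were chosen by their pooled signal and their position. Of 26275 rows in the authors' pooled list of peaks and background regions, 21664 had no summit of the authors' optimal list within 250 bp. Of these, 4143 had a summit more than 500 bp from every transcript start, in no UTR and inside a coding sequence. Dropping the 174 summits that lay within 250 bp of a stronger summit left 3969 regions, out of 20393 weak regions of all positions. Coding sequence that meets the same conditions is called eligible coding sequence below, and it makes up 12.7% of the bases of the 7 chromosome arms.

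The study profiled whole Drosophila melanogaster embryos, 0 to 24 h old and of mixed sex, from the strain Pum-MiMIC-GFP, in which an insertion into the pum locus tags the Pum protein with eGFP. All embryonic tissues were therefore mixed, and both samples came from this 1 line. Chromatin was sonicated to 200 to 800 bp and precipitated through GFP. The labels give 2 biological replicates, numbered 2 and 3, in 1 group, so no conditions were compared, and control precipitations were not analysed here. The files hold peak lists and no read counts, so the depth is unknown, and each interval given below covers counting error over regions only. Each replicate had its own list of 30000 rows, and the pooled list was made from both.

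Pumilio (Pum) belongs to the PUF family of RNA-binding proteins. It represses translation by binding the element UGUANAUA, usually in the 3' UTR of an mRNA, and acts with Nanos and Brat on maternal hunchback mRNA in the early embryo. It is not known as a DNA-binding transcription factor. Coding exons of Drosophila are richer in G and C than introns and hold many repeats of the glutamine codon CAG.

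Examples of the sequence under these summits follow. The first group holds strong regions that were found in the lists of both replicates, with the codon at the summit, or its part within the exon or transcript used, in capitals. All are 30 bases of the Release 6 genome (dm6) from RefSeq, 5' to 3' on the strand of the gene.
l(3)mbn (chr3L:6124800-6124829, minus strand): tacaccaaccggaAATgtaccctgtaagtg
CG1986 (chrX:9909616-9909645, minus strand): caccgccccccagCAGccgtacgtgccgag
Atg13 (chr3R:8351438-8351467, plus strand): tgaactgcaggcaGAGatctcatcgatttc
vvl (chr3L:6790859-6790888, plus strand): ggtgatctggacatgGCCctcggaggcggt
sgg (chrX:2659642-2659671, plus strand): tgagtctgccacaaGCGccacctggcggca
how (chr3R:22043163-22043192, plus strand): caggctcaagcccaaGCCcaggctcaggct
The next 3 are the strongest regions that hold CAGCAGCAG within 100 bp of the summit, with the repeat in capitals whatever its reading frame.
InR (chr3R:21580241-21580270, minus strand): gcagtagcaaCAGCAGCAGctgtcaagcaa
how (chr3R:22043146-22043175, plus strand): cggtcgcgcaaCAGCAGCAGgctcaagccc
corto (chr3R:5085755-5085784, minus strand): ccaacaccagCAGCAGCAGcaactcgcgcc
The last 2 are the regions that hold the DNA form of the Pum element, TGTANATA, within 15 bp of the summit.
pbl (chr3L:7900159-7900188, minus strand): actatcgacttcgatcgcTGTACATAgctc
AspRS-m (chr2L:16831205-16831234, plus strand): aaTGTAGATAttaagcaggagcccgaaggt

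The regions were faint. Their signal, the authors' own value for a row of a list, had a median of 28.8 and ran from 23.2 to 76.4 in the pooled list, against a median of 31.4 over all weak regions. These values chose the regions and are given as a description. The median −log10 of the authors' q-value was 0.148. Only 17 of the 3969 regions (0.428%) reached 2 on that scale, which corresponds to a q-value of 0.01, and 7.99% of all weak regions did. Among weak regions of other positions the share was 13.9% at promoters, meaning within 500 bp of a start, 8.999% in introns and 6.69% between genes.

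The optimal list consisted of the strongest pooled rows, so a signal threshold separates it from these regions. Just outside stood optimal peaks in eligible coding sequence of Tim17b1, a mitochondrial import gene, at 85.2, of scrib, a cell polarity gene, at 83.7, and of Abl, a tyrosine kinase gene, at 81.9. Just inside stood regions of l(3)mbn at 76.4, of fus at 72.3 and of CG1986 at 71.6. Only 8 of the 3816 optimal peaks (0.210%) lay in eligible coding sequence, with signals up to 872.

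Coding sequence held 19.5% of all weak regions (95% Wilson interval 18.9 to 20.01%) against its 12.7% of the bases, a ratio of 1.53. Position and signal chose the regions, so this ratio and the other ratios of the coding share are a description, and no p-value is given for them. Above the median signal of all weak regions the ratio was 1.10, and among the weak regions found in the lists of both replicates it was also 1.10. Of the 1630 weak regions with a −log10 q-value of 2 or more, 17 (1.04%) lay in coding sequence, a ratio of 0.0821, in the opposite direction. When the 20393 weak regions were divided by pooled signal into 10 groups of equal size, coding summits made up 1.13% of group 1, the strongest, and 8.14% of group 2, both below the share of bases. It reached 16.7% in the group after those and lay between 20.7 and 26.1% in all weaker ones. Over the same groups the promoter share went from 43.3% to 20.3%. The replicates' own lists, processed in the same way, had 22.6% of weak regions in coding sequence for replicate 2 and 15.1% for replicate 3.

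**Figure D1:**
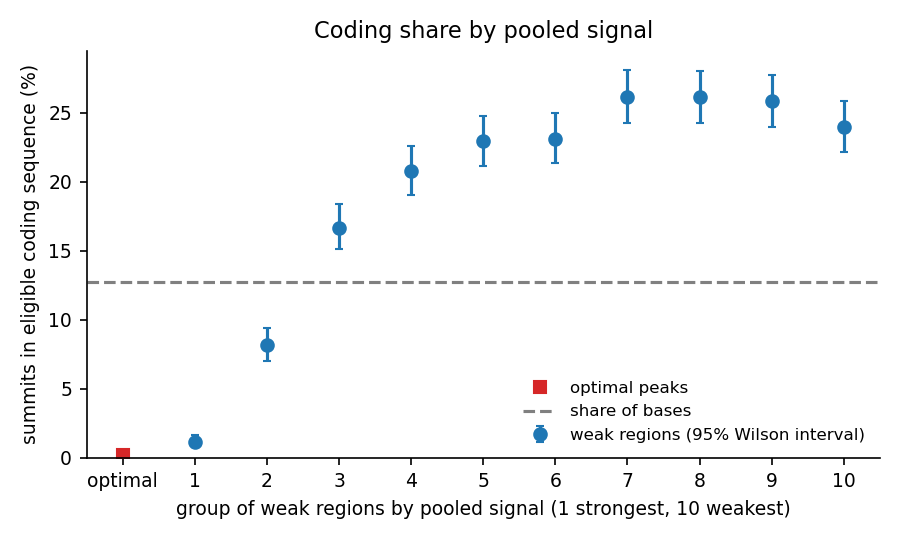
Share of summits in eligible coding sequence (y axis, %) for the optimal peaks and for 10 equal groups of weak regions ordered by pooled signal (x axis), with 95% Wilson intervals for the weak regions. The dashed line is the 12.7% of bases, and the share passes it only from group 3 on.

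Few of the regions were seen in both replicates. A summit within 100 bp was listed for 2629 regions (66.2%) in replicate 2 and for 1692 (42.6%) in replicate 3. Both lists held 843 regions, or 21.2% (19.995 to 22.5%), against 29.6% of all weak regions. Replicate 2 alone held 1786, replicate 3 alone held 849, and 491 were in neither list. At weak promoters 34.6% were in both lists and at weak introns 30.5%. Requiring summits within 50 bp left 13.4% of the coding regions in both lists, and allowing 200 bp gave 28.7%. Since these libraries made the pooled list that chose the regions, no test is given.

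Listing in both replicates rose with the pooled signal. This is in part built in, because the pooled list was made from the same 2 libraries, and it is given as a description. With the regions divided by pooled signal into 5 groups of nearly equal size, 61.0% of the strongest group, with signals of 35.4 or more, were in both lists, and 1.39% of the weakest, at 25.3 or less. Signals in replicate 2 had a lowest value of 13.7, a median of 20.1 and a highest of 51.6. In replicate 3 the lowest was 11.1, the median 15.4 and the highest 37.7. Across the 843 regions in both lists, Spearman's rho between the replicates' signals was 0.0648 and Pearson's r of the log2 signals 0.0975. These regions share 2 libraries and were limited from above by the optimal list and from below by the ends of the lists. Among as many top rows of each replicate's list as the optimal list holds, replicate 2 had 5 of the regions and replicate 3 had 0.

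**Figure D2:**
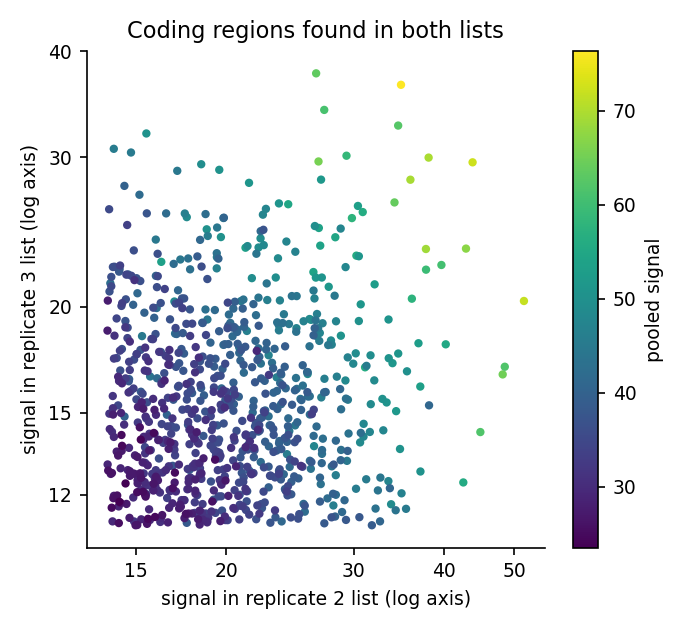
Signal in the list of replicate 2 (x axis, log scale) and replicate 3 (y axis, log scale) for the 843 coding regions found in both, coloured by pooled signal. The points form a broad cloud with a Spearman's rho of 0.0648. The highest pooled signals are at the upper right, where the pooled list, made from both replicates, would place them.

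The strongest regions found in both lists were in genes of varied roles. The first was in l(3)mbn (FBgn0002440, 3L 6123934 to 6128807) at 6124815, with signals of 34.9 in replicate 2, 36.5 in replicate 3 and 76.4 in the pooled list. Its summit lay in a coding exon of 63 bp, and its GC content of 42.3% was far below that of most of the regions. In fus (FBgn0023441, 2R 15657318 to 15676669), which encodes an RNA-binding protein, the summit at 15658059 had 43.8 in replicate 2, 29.6 in replicate 3 and 72.3 pooled. CG1986 (FBgn0030162, X 9908663 to 9911126) had 51.6 in replicate 2 but 20.3 in replicate 3 at 9909631, and 71.6 pooled. The signals were thus close at l(3)mbn and far apart at CG1986. The −log10 q-values at l(3)mbn were not close, at 1.52 in replicate 2 and 3.46 in replicate 3.

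Signalling and developmental genes followed. The autophagy gene Atg13 (FBgn0261108) had 38.1 in replicate 2, 29.98 in replicate 3 and 69.7 pooled. For vvl (FBgn0086680), which encodes a POU-domain transcription factor, the values were 35.9, 28.2 and 69.3 in the same order. At sgg (FBgn0003371), the gene of the GSK-3 kinase of the Wnt pathway, they were 37.8, 23.4 and 68.7. The signal was higher in replicate 2 at all 3 of these genes, but the 2 lists may not share a scale. The −log10 q-value was higher in replicate 3 at Atg13 (2.42 against 1.93) and vvl (2.11 against 1.68), and in replicate 2 at sgg (1.91 against 1.28). The insulin receptor gene InR (FBgn0283499) had 26.8 in replicate 2, 29.7 in replicate 3 and 65.5 pooled. The gene how (FBgn0264491), which encodes an RNA-binding protein of the STAR family, had 26.6, 37.7 and 63.5. At InR and how the signal was higher in replicate 3. The Hedgehog receptor gene ptc (FBgn0003892) had 34.6, 32.7 and 62.3. CG44838 and CG4612, also among the 12 strongest, had pooled signals of 67.2 and 64.8.

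GC content set the regions apart from other coding sequence. The median GC content within 100 bp of the summit was 57.7% (quartiles 53.7 and 61.7%), against 52.2% (47.3 and 56.7%) for windows centred on every 50th eligible base. It was above the median of those windows in 3230 of 3969 regions, or 81.4% (80.1 to 82.6%; two-sided exact binomial test, with a p smaller than double precision can hold). Windows under 45% GC held 2.67% of the regions and 16.9% of eligible windows, while windows of 65% or more held 9.30% and 1.93%. The strongest of the 5 signal groups had a median of 59.2% and the weakest 56.7%. Regions in both replicate lists had 58.2%, and those in neither 56.7%.

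The rise in GC content was local. In windows of 50 bp on either side, the mean was 58.3% at the summit and 52.6% at eligible bases, a difference of 5.65 percentage points. At 300 bp upstream on the reference strand the difference was 2.13, and at 1000 bp it was 0.207. Optimal peaks had a median GC content of 36.3%, but the 8 in eligible coding sequence had 57.5%. Weak regions of other positions also differed from the bases of their own class, by 12.4 percentage points in 3' UTRs, 5.47 in 5' UTRs, 1.99 at promoters and 0.995 in introns. The difference is thus not confined to coding sequence. The part of GC content in where these regions were listed was not tested.

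**Figure D3:**
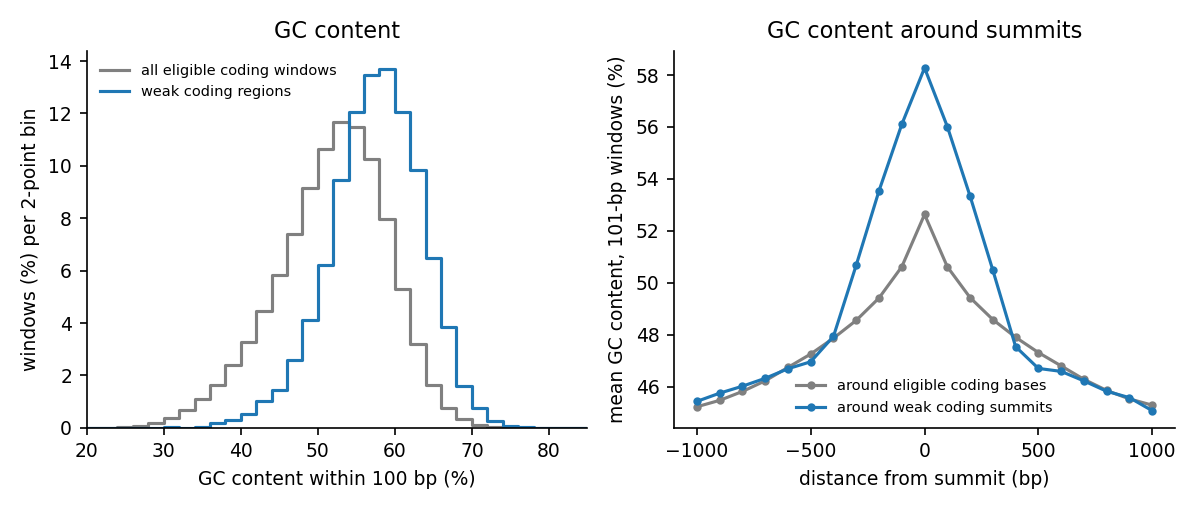
Left, distribution of GC content (x axis, %) within 100 bp of the 3969 summits and of eligible coding bases, as a share of windows in bins of 2 points (y axis). Right, mean GC content (y axis, %) against distance from the summit (x axis, bp), which is 58.3% at the summits, 52.6% at eligible bases and about the same for both at 1000 bp.

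Of 7 sequence motifs searched on both strands within 100 bp, 3 differed in frequency from eligible coding windows. The repeat CAGCAGCAG, which appears in the sequences of InR, how and corto above, was present in 344 regions, 8.67% (7.83 to 9.58%) against 4.84% of windows (ratio 1.79, adjusted p = 2.26e-23, exact binomial test). It was present in 2.00% of weak intronic regions and 0.577% of optimal peaks. Of its 818 occurrences inside coding sequence near these summits, 777 (94.99%) read in the sense direction of the gene, and 92.9% did over all eligible coding sequence. Overlapping occurrences in a longer repeat were counted separately.

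The Pum element TGTANATA was present in 47 regions, 1.18% (0.892 to 1.57%) against 2.06% of windows (ratio 0.576, adjusted p = 9.69e-05, exact binomial test). Without replicate 2, in the list of replicate 3 alone, the ratio was 0.785 and did not pass (adjusted p = 0.153, exact binomial test), and among regions in both lists it was 0.519 (adjusted p = 0.0904, exact binomial test). Only the regions of pbl and AspRS-m had it within 15 bp of the summit. The region of pbl, a gene required for cytokinesis, had a pooled signal of 28.3 and was in neither replicate list. That of AspRS-m had 24.1 pooled, 16.7 in replicate 2 and no row in replicate 3. Of 29 elements that lay wholly inside coding sequence, 12 read in the sense direction, which did not differ from an even split (adjusted p = 0.458, exact binomial test) and compares with 40.4% over eligible sequence. The run AAAAAAAA was present in 0.731% of regions against 1.53% (ratio 0.479, adjusted p = 3.33e-05, exact binomial test). Above the median signal of all weak regions the ratio was 0.554 and no longer passed (adjusted p = 0.0898, exact binomial test). In windows of 50 bp on either side neither AAAAAAAA nor TGTANATA passed, at 0.527 and 0.615 (adjusted p = 0.0872 for each, exact binomial tests).

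These motif differences moved with base composition. Against eligible windows weighted to the GC content of the regions, the ratio was 1.06 for CAGCAGCAG (adjusted p = 0.41), 1.28 for TGTANATA (adjusted p = 0.226) and 1.60 for AAAAAAAA (adjusted p = 0.105), all by exact binomial tests, so that no motif passed and the last 2 turned direction. Within windows of 60 to 65% GC, CAGCAGCAG was in 13.8% of regions and 11.9% of eligible windows. The DNA replication-related element TATCGATA (3 regions), CACACACA (20), GAGAGAG (42) and CAGGTAG (67) did not pass against unweighted windows (adjusted p from 0.313 to 0.876, exact binomial tests).

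Chromosome X held fewer regions than its coding sequence would give. It had 530 regions, 13.4% (12.3 to 14.4%) against 17.7% of eligible bases, a ratio of 0.752 (adjusted p = 4.80e-13, two-sided exact binomial test). X held 8.69% of the strongest of the 5 signal groups and 17.7% of the weakest. The X ratio of weak intronic regions to intronic bases was 0.996, that of weak promoter regions 1.07 and that of optimal peaks to all bases 1.14. The differences between these ratios were not tested. Coding sequence on X had the highest GC content of the arms, 54.7%, and weighting by GC content moved the X ratio to 0.585 (adjusted p = 1.78e-50, exact binomial test).

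Arm 3R held 1052 regions, 1.12 times its share (adjusted p = 0.000106, exact binomial test), but 1.04 times without replicate 2 (adjusted p = 0.216) and 1.11 times among regions in both lists (adjusted p = 0.12, exact binomial tests). Chromosome 4 held 7 regions, 0.143 times its share (adjusted p = 4.90e-13, exact binomial test) and 0.481 times without replicate 2. Its coding windows had a median GC content of 39.8%, and against windows weighted by GC content it no longer passed, at a ratio of 0.732 (adjusted p = 0.516, exact binomial test). Shares on 2L, 2R and 3L did not pass, with ratios of 1.03, 1.07 and 1.07 (adjusted p from 0.0518 to 0.413, exact binomial tests). Weighted by GC content, all 3 passed, at 1.15, 1.08 and 1.13. Arm 3L also passed under 6 other alternatives, among them without replicate 3, at 1.08 (adjusted p = 0.00872), and in both lists, at 1.19 (adjusted p = 0.0233, exact binomial tests). Arm 2R passed above the median signal, at 1.12 (adjusted p = 0.0305, exact binomial test). No list held a row on Y, so that arm carries no information.

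**Figure D4:**
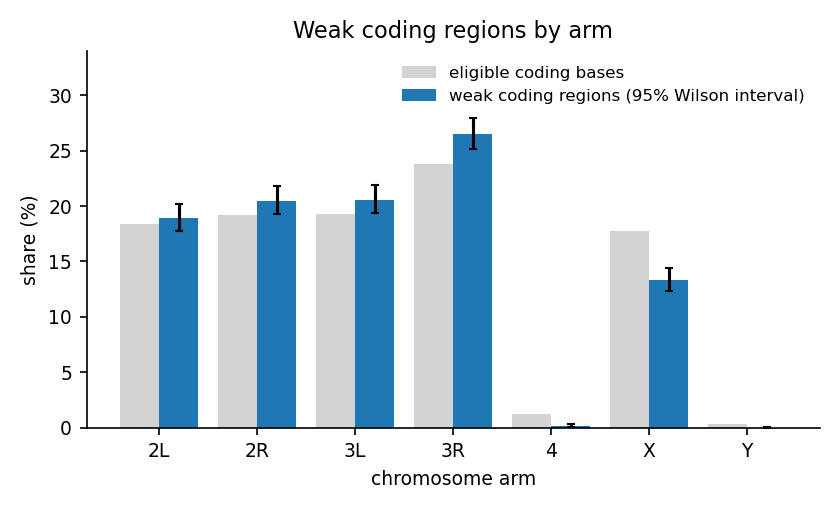
Share (y axis, %) of eligible coding bases (grey) and of the 3969 weak coding regions (blue, with 95% Wilson intervals) on each chromosome arm (x axis). X holds 13.4% of the regions and 17.7% of the bases, and 3R 26.5% and 23.8%.

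Within genes the regions were only slightly displaced from coding sequence as a whole. From 500 to 1000 bp from the nearest transcript start lay 1152 regions, 29.0% (27.6 to 30.5%) against 25.2% of eligible bases (ratio 1.15, adjusted p = 1.00e-07, two-sided exact binomial test). This call was lost without replicate 3, at a ratio of 1.03 (adjusted p = 0.178, exact binomial test), and when regions within 1000 bp of an optimal summit were left out, at 1.04 (adjusted p = 0.202). Of 5 equal parts of the coding sequence, the most 5' one held 1.29 times its share of the eligible bases, and the others 0.926 to 1.01 times. The part 3' of the midpoint held 53.4% of 3875 regions placed on the longest coding transcript, against 55.9% (ratio 0.954, adjusted p = 0.00215, exact binomial test), and exons with over 1000 bp of coding sequence held 40.9% against 42.5% (ratio 0.961, adjusted p = 0.0409). Both calls were lost without replicate 3 (adjusted p = 0.178 for each, exact binomial tests). The median distance to the nearest optimal summit was 7781 bp, and 9694 bp for eligible bases.

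The regions were spread over many genes. Of 12001 genes with eligible coding bases, 3086 (25.7%) held at least 1 region. Of these, 2437 held 1 and 160 held 3 or more. The share of genes with a region went from 3.57% in the shortest of 5 groups by length of eligible sequence to 52.0% in the longest, while the density stayed between 19.3 and 26.8 regions per 100 kb. An optimal summit lay within 500 bp of a start in 25.7% of the host genes and in 17.8% of genes with no region, but host genes had more coding sequence, with a median of 1708 bp of eligible sequence against 774.

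Genes with the most regions were mostly large. Msp300, which encodes a giant nesprin of muscle, held 9 regions in 63025 bp of eligible sequence, or 0.143 per kb, with pooled signals from 23.3 to 41.5, and 1 of them was in both lists. The gene lola, which encodes many BTB zinc-finger isoforms, held 8, and ctrip, a ubiquitin ligase gene, held 7. Each of btsz, spen and kst held 6, and each of osa, pum, gukh and dom held 5. Chromatin remodelling proteins are encoded by osa, a subunit of the SWI/SNF-type complex, and by dom, an ATPase.

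The tagged gene pum (FBgn0003165, 3R 9066343 to 9237682, minus strand) had the highest density of these 10 genes, 1.03 regions per kb of its 4872 bp of eligible sequence. Over all genes the density was 22.7 per 100 kb, but the 10 genes were chosen for holding the most regions, so the comparison is not a like one. The strongest region of pum, at 9218591, had 34.3 in replicate 2, 15.1 in replicate 3 and 51.7 pooled. The next, at 9072587, had 26.9, 18.6 and 47.6 in the same order. Both of these were found in the 2 lists. The region at 9214145 was in replicate 2 only, with 22.0 there and 35.3 pooled. Those at 9233612 and 9070950 were in replicate 3 only, with 14.97 and 14.2 there and 28.2 and 24.6 pooled. The median GC content of the 5 was 64.2%, and 6 optimal summits lay within the gene.

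Density differed widely between the 23 gene lists examined, several of which hold few genes, and these counts are a description. The densities were not weighted by GC content. Eligible windows under 45% GC held 0.158 times their share of all the regions, and those of 65% or more 4.81 times. The part of GC content in the list densities was not tested. Of the patterning lists, 3 stood above the 22.7 regions per 100 kb of all genes and 1 below. Pair-rule genes had 72.8 (7 regions in 6 of 9 genes), Hox genes 67.3 (7 regions in 5 of 8) and gap and head gap genes 43.6 (8 regions in 6 of 12). Segment polarity genes had 14.0, with 3 regions in 3 of 12 genes. The pair-rule repressor gene hry had a region with 36.6 in replicate 2, none listed in replicate 3 and 54.6 pooled, and opa, a zinc-finger gene, had 28.0, 18.0 and 46.4. The terminal gap gene tll had 35.4 in replicate 2, 11.6 in replicate 3 and 45.1 pooled. In the Hox gene pb the values were 19.9, 18.1 and 39.8. The signal was higher in replicate 2 at opa, tll and pb, but the 2 lists may not share a scale. At pb the region ranked 14005 in replicate 2 and better, 13482, in replicate 3.

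The lists of ribosomal protein, glycolysis, and tubulin and actin genes were also above the density of all genes. Ribosomal protein genes had 68.0 regions per 100 kb (11 regions in 10 of 55 genes with eligible sequence), glycolysis genes 60.2 (8 regions in 7 of 12) and tubulin and actin genes 44.2 (7 regions in 6 of 14). RpS2 had 29.95 in replicate 2, 17.1 in replicate 3 and 47.9 pooled. The pyruvate kinase gene PyK had 34.3, 11.5 and 43.9. Tubulins, actins, P450 enzymes and other families have similar copies, and how the authors placed reads shared between copies is not given in the sources used here. Heat shock protein genes had 24.9 and translation elongation factor genes 29.6.

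Several lists stood below. Mucin genes had 1.07 regions per 100 kb, a single region in 93.5 kb, which was in Muc11A. Of this sequence, 48258 bp lay in the 1 gene Muc14A, which held no region. Dynein heavy chain genes had 3.92, or 5.66 without the 3 on Y, where no row was listed. Chemoreceptor genes had 5.82 (9 regions in 171 genes), cadherin genes 7.47 and muscle structure genes 11.9. Most of the 184 kb of the muscle list lay in Msp300 (63025 bp) and sls (55463 bp). Extracellular matrix genes had 15.8, voltage-gated channel genes 14.6 and axon guidance genes 17.1. Chromatin regulator genes were at 22.7, cytochrome P450 genes at 20.4, the spectrin, plakin and myosin list at 25.3, cuticle protein genes at 33.4 and the Notch pathway list at 37.0.

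The list of mRNAs known as Pum targets had 28.7 regions per 100 kb, 5 regions in 3 of 8 genes. The stronger region of hb (hunchback), the best known of them, had 19.98 in replicate 2, none listed in replicate 3 and 33.2 pooled. Its other region had 22.2 in replicate 2, none listed in replicate 3 and 30.8 pooled. Both regions of hb were thus missing from the list of replicate 3, which held only 42.6% of all the regions. The stronger region of Delta, which encodes a Notch ligand, had 15.9 in replicate 2, 12.5 in replicate 3 and 30.7 pooled, and the weaker had none listed, 14.1 and 29.4. The region of dlg1, a cell polarity gene, was in neither replicate list and had 28.9 pooled. In the pooled list the −log10 q-value was only 0.295 for the stronger region of hb and 0.204 for that of Delta. None of these 5 regions held TGTANATA within 100 bp. Only 1.18% of all the regions held it, so 5 regions are too few to show a difference.

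**Figure D5:**
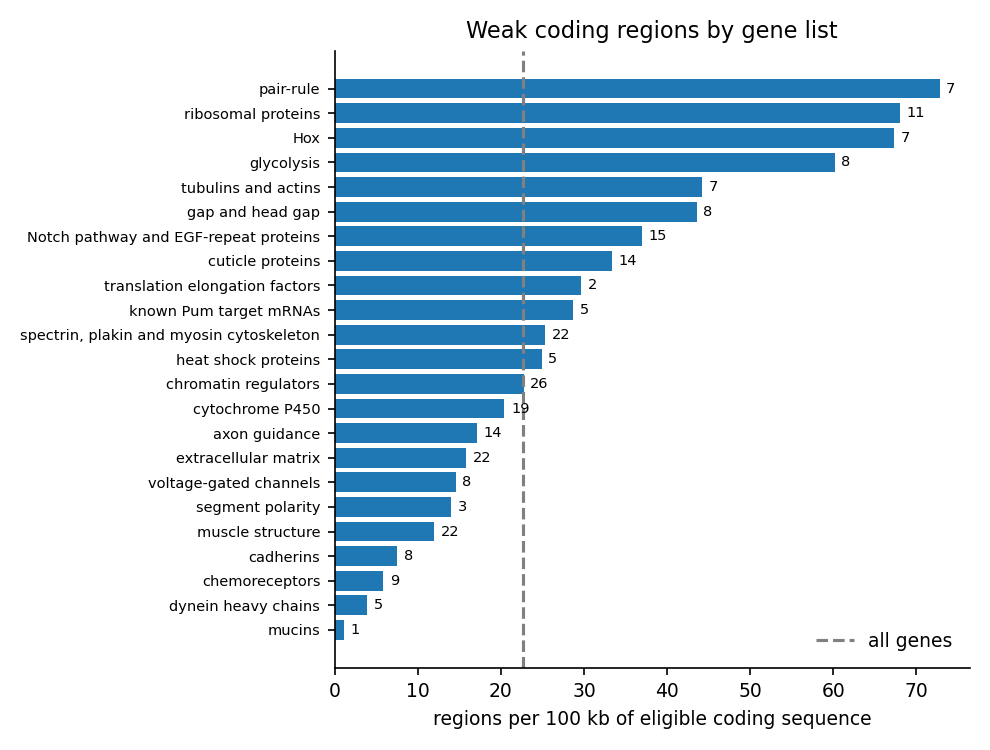
Weak coding regions per 100 kb of eligible coding sequence (x axis) for 23 gene lists (y axis), with the number of regions at the end of each bar and the 22.7 of all genes as a dashed line. Pair-rule genes have 72.8 and mucin genes 1.07, and most lists rest on fewer than 20 regions.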

How the data were processed

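The peak lists were deposited by the authors on dm6: 1 per replicate, 1 pooled and 1 optimal. The signal of each row and the −log10 of its q-value are the authors' deposited values. Not given in the sources used here: the peak caller, its settings, the reproducibility cut-off and the handling of shared reads. Read depth is unknown. Lists on another build were not used here. Summits were classed with gene models of Ensembl release 115, all transcript starts included, on the RefSeq sequence of Release 6; coordinates are 1-based. Positions, GC content and motifs were compared with eligible coding bases, or windows on every 50th of them, by two-sided exact binomial tests with Benjamini-Hochberg adjustment within 6 single tests, 7 arms and 7 motifs, at a threshold of 0.05. The 6 single tests count that of the coding share against all bases, whose p-value is not given. All p-values treat regions as independent and do not measure the spread between the 2 replicates.

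The regions, lists and motifs were chosen with earlier results of these data known. Named genes were those of the 12 strongest regions in both replicate lists, the 10 genes with the most regions, up to 2 genes per list, carriers of motifs that passed, and the 3 regions and peaks nearest the signal threshold; not all are printed, and 1 of the 12 is not reported here. In the lists, 2 symbols were matched through synonyms. Weighting by GC content, the other match distances, the strand share of eligible sequence, list densities without genes on Y and leaving out bases near optimal summits were alternatives chosen after seeing the data. The code was tested on simulated data. Python 3.11.15, numpy 2.4.6, scipy 1.17.1 and matplotlib 3.10.9 were used.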

Additional observations from a re-analysis of the deposited data

How the results depend on the processing

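Values here are ratios of the share of regions to the expected share, unless said otherwise. The excess of GC content kept its direction and its call under every alternative run for it. The ratios on X, 3L, 3R and 4, from 500 to 1000 bp from a start, for the part 3' of the midpoint, for long exons and for CAGCAGCAG kept their direction, but each crossed the threshold under at least 1 alternative. Of the 1630 weak regions with a −log10 q-value of 2 or more, 17 were coding, 0.0821 times the share of bases, which turned the direction. Among those 17 the ratio from 500 to 1000 bp from a start was 2.10, which passed (adjusted p = 0.0405, exact binomial test). The ratio for GC content above the median of eligible windows was 1.765 and also passed (adjusted p = 0.00705, exact binomial test). Not passing were 0.320 on 2L, 0.918 on 2R, 1.83 on 3L, 1.24 on 3R, 0 on 4 and Y and 0.663 on X. Nor did 0.477 for the part 3' of the midpoint, 0.830 for long exons, 3.65 for CAGCAGCAG and 0 for each of the other motifs pass. The small number of regions limits these tests.

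Above the median signal of all weak regions the ratios were 0.946 on 2L, 1.12 on 2R and 1.16 on 3L, of which the last 2 now passed, and, none passing, 0.951 for the part 3' of the midpoint, 0.948 for GAGAGAG, 1.07 for CAGGTAG and 0.554 for AAAAAAAA. Among the 843 regions in both lists they were 1.19 on 3L, which passed, and, none passing, 1.11 on 3R, 0 on Y, 0.960 for the part 3' of the midpoint, 0.519 for TGTANATA, 0.570 for GAGAGAG and 1.11 for the strand of the Pum element. Beyond 1000 bp from transcript starts they were 1.09 on 3L, which passed, and, not passing, 0.983 for the part 3' of the midpoint and 0.957 for long exons. Beyond 1000 bp from optimal summits, with the expected shares still taken over all eligible bases, they were 1.08 on 3L, which passed. Not passing in that setting were 1.04 from 500 to 1000 bp from a start, 0.970 for the part 3' of the midpoint and 0.976 for long exons. Without bases that are intronic in some transcript they were 1.09 on 3L, which passed, and, not passing, 0.976 for long exons and 0.896 for GAGAGAG. Windows of 50 bp on either side gave 0.615 for TGTANATA, 0.791 for GAGAGAG, 0.527 for AAAAAAAA and 1.09 for the strand of the Pum element, none passing.

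Against windows weighted by GC content, an alternative chosen after seeing the data, the ratios were 1.15 on 2L, 1.08 on 2R, 1.13 on 3L, 0.732 on 4, 0 on Y, 1.28 for TGTANATA, 1.06 for CAGCAGCAG and 1.60 for AAAAAAAA. The strand of the Pum element was 1.02 times the share over eligible sequence. The share of regions in both lists was 13.4% at 50 bp and 28.7% at 200 bp. The causes of these changes were not tested, except that weighting by GC content removes differences in base composition by construction.

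Leaving out 1 replicate, which means using the other's own list, gave ranges of 1.04 to 1.11 on 3R, 1.07 to 1.08 on 3L, 0.585 to 0.785 for TGTANATA, 1.00 to 1.18 for CAGGTAG, 0.772 to 1.02 for CACACACA, 0.946 to 1.06 for GAGAGAG, 1.03 to 1.26 from 500 to 1000 bp from a start, 0.945 to 0.980 for the part 3' of the midpoint and 0.934 to 0.977 for long exons. The ratio on 4 was 0.481 without replicate 2 and 0.147 without replicate 3. The coding share ranged from 1.19 to 1.78. No paired analysis was possible because the samples form 1 group.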
